A study of Homo sapiens with 9 samples.

Results

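The genes described here encode the structural proteins of the extracellular matrix: collagens, laminin chains, fibronectin, fibrillins, nidogens, perlecan, matrilin 2 and thrombospondins. A gene was taken when a probe set carried its symbol alone in the platform annotation and the symbol was a collagen chain (COL with a type and a chain number), a laminin chain (LAMA, LAMB or LAMC) or 1 of FN1, FBN1, FBN2, NID1, NID2, HSPG2, MATN2 and THBS1 to THBS3. This gave 52 genes, read by 116 probe sets, of the 11963 symbols on the array. Each gene is given by its probe set with the highest mean over the 9 arrays. Members were taken by name and not by measured values, though the set was chosen with earlier results of these data known. A further 14 collagen and laminin genes, among them COL12A1 and COL17A1, are not analysed here.

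The values come from the triple-negative human breast cancer cell line MDA-MB-231, grown in DMEM with 10% fetal bovine serum. All cells carried a stably integrated lentiviral pLKO vector. The control line expressed a scramble hairpin, and the others, called shco2 and shco4, each expressed a different hairpin against Coco (gene DAND5), a secreted antagonist of BMP, Nodal and activin ligands. Each line was read on 3 arrays labelled as biological replicates, and the comparisons ask how matrix genes differ between either hairpin line and scramble and between the hairpin lines. Each hairpin is represented by 1 stable line, so hairpin and line cannot be told apart, and the labels do not say whether replicates came from separate transductions. No probe set carries the symbol DAND5, so the level of the targeted RNA is not analysed here. In a bulk culture, fewer cells with an RNA and less of it per cell cannot be told apart.

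Collagens are built from 3 chains wound into a triple helix. Fibrillar collagens (types I, II, III, V and XI) assemble into the cross-banded fibrils of connective tissue, whereas type IV collagen forms the network of the basement membrane, the sheet on which epithelial cells rest. Laminins are cross-shaped trimers of an alpha, a beta and a gamma chain that bind integrins on the cell surface, and nidogen and perlecan (HSPG2) link the laminin and collagen IV networks. Collagen VI forms beaded filaments around cells, and fibronectin is laid down as fibrils that carry other matrix proteins. In breast tumours, stromal fibroblasts make much of this matrix, but carcinoma cells express parts of it too.

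Intensities are on the deposited linear scale, and a value under 16 was set to 16 before log2 was taken. Differences are in mean log2 intensity ± standard error, and a gene is said to have risen or fallen only at an adjusted p under 0.05 in limma, adjusted over all 22215 probe sets tested, with n = 3 arrays per group. Array medians lay between 122.5 and 129.6. Of markers of the line, VIM, CD44, AXL and MSN, expected present, were bright. Of those expected low or absent, ESR1 was dim and PGR under 16 on all arrays. ERBB2 (515 to 803) and GATA3 (437 to 683), also expected low or absent, were well above the floor. CDH1, likewise expected low, read 71.5 to 117 in scramble, 28.0 to 57.2 in shco2 and 182 to 243 in shco4. Its difference with shco4 did not pass (1.15). VIM (-0.32, adjusted p = 0.00233), CD44 (-0.52, adjusted p = 0.00273), MSN (-1.20, adjusted p = 0.000563) and CDH1 (-1.37, adjusted p = 0.0258) fell with shco2. With shco4 AXL fell 4.33-fold (-2.11, adjusted p = 0.000248), while CD44 (0.36, adjusted p = 0.011) and the dim ESR1 (0.77, adjusted p = 0.0439) rose. The summed intensity of these 9 line markers, those expected low or absent included, was 32809 to 33201 in scramble, 24181 to 25768 in shco2 and 26887 to 28641 in shco4. The 3′ to 5′ ratio of the ACTB probe sets was 1.07 to 1.1 in scramble, 1.08 to 1.11 in shco2 and 1.12 to 1.14 in shco4. The summed intensity of 9 fibroblast markers was 216 to 246 in scramble, 194 to 223 in shco2 and 331 to 477 in shco4. Of these markers FAP and DPT were under 16 on all arrays, and only LUM passed the test with shco4. The summed intensity of 10 luminal breast markers was 6311 to 7744 in scramble, 3593 to 3828 in shco2 and 6232 to 6614 in shco4, with FOXA1 under 16 on all arrays. Of these 10 markers 3 fell with shco2 (KRT19, CDH1 and SPDEF), while with shco4 2 fell and 1 rose. The part of these shifts in the matrix results was not tested.

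More matrix genes fell with shco2 than with shco4. With shco2, 17 of the 52 genes fell (32.7%, against 9.95% of all probe sets) and 1 rose (1.92%, against 10.7%). With shco4, 4 fell (7.69%, against 9.75%) and 3 rose (5.77%, against 9.05%), so the shares called in that line lie below those of the array. When shco4 was set against shco2 directly, 17 genes were higher in shco4 (32.7%, against 14.9%) and 3 were lower (5.77%, against 16.1%). The median difference over the 52 genes was -0.24 for shco2, 0.01 for shco4 and 0.47 for shco4 over shco2, beside 0.00 over all probe sets in each case. With 1 probe set per gene, as for these 52, the shares over all 11963 genes were 11% lower and 13.3% higher with shco2, 11.5% and 10.7% with shco4, and 19.3% and 16% for shco4 against shco2. The first 2 comparisons share the scramble arrays and the first and last share the shco2 arrays, so they are not independent of one another. The falls with shco2 ranged from 1.41-fold (LAMB1) to 8.72-fold (COL6A3).

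**Figure D1:**
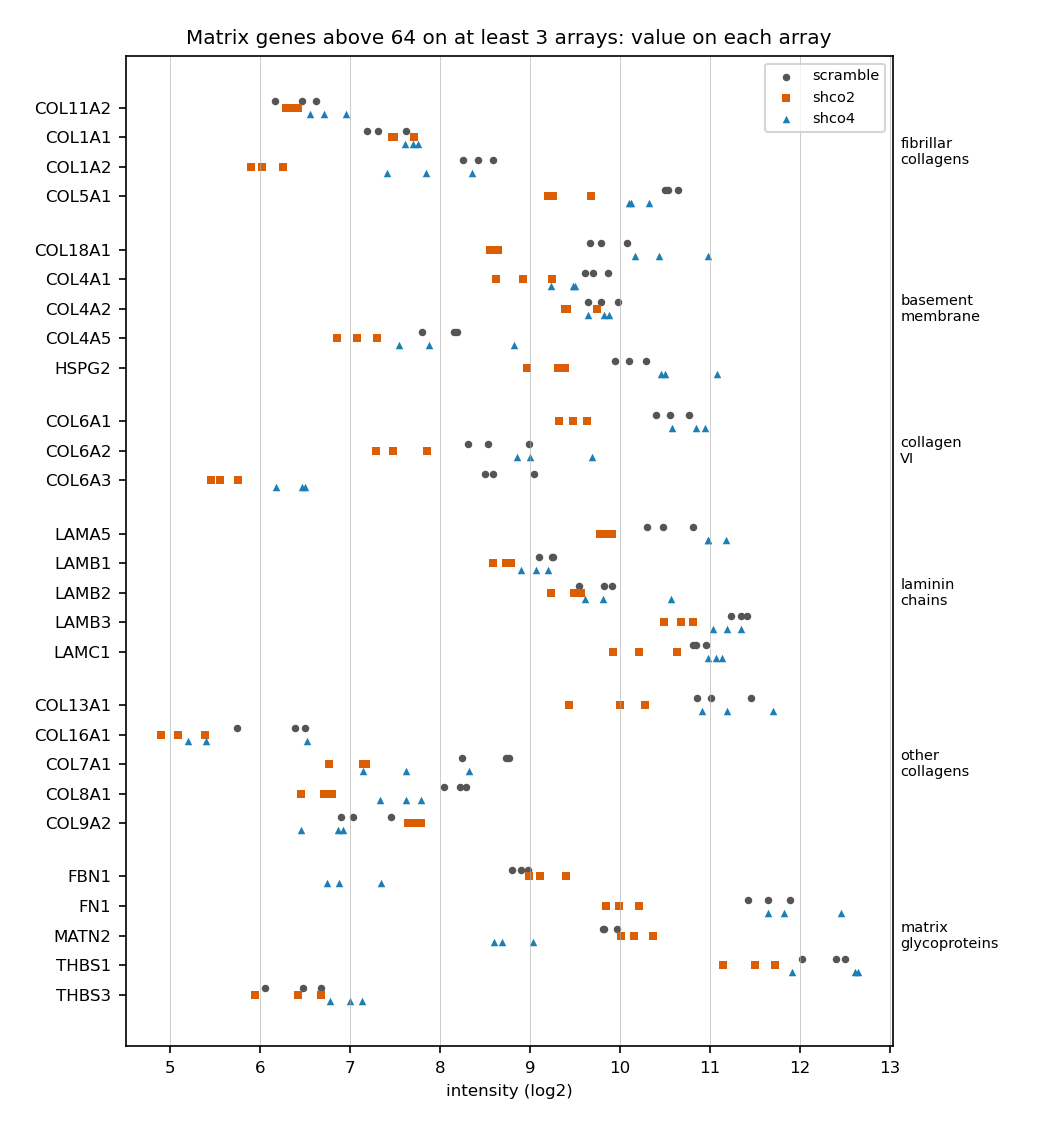
Log2 intensity (horizontal axis) of the 27 matrix genes above 64 on at least 3 arrays, with 1 point per array and the genes grouped by class. The shco2 squares lie left of the scramble circles for COL1A2, COL5A1, COL18A1, COL6A1, COL6A2, COL6A3, LAMA5, LAMB1, LAMB3, LAMC1 and FN1, among others. The shco4 triangles lie far left of them for COL6A3, FBN1 and MATN2.

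**Figure D2:**
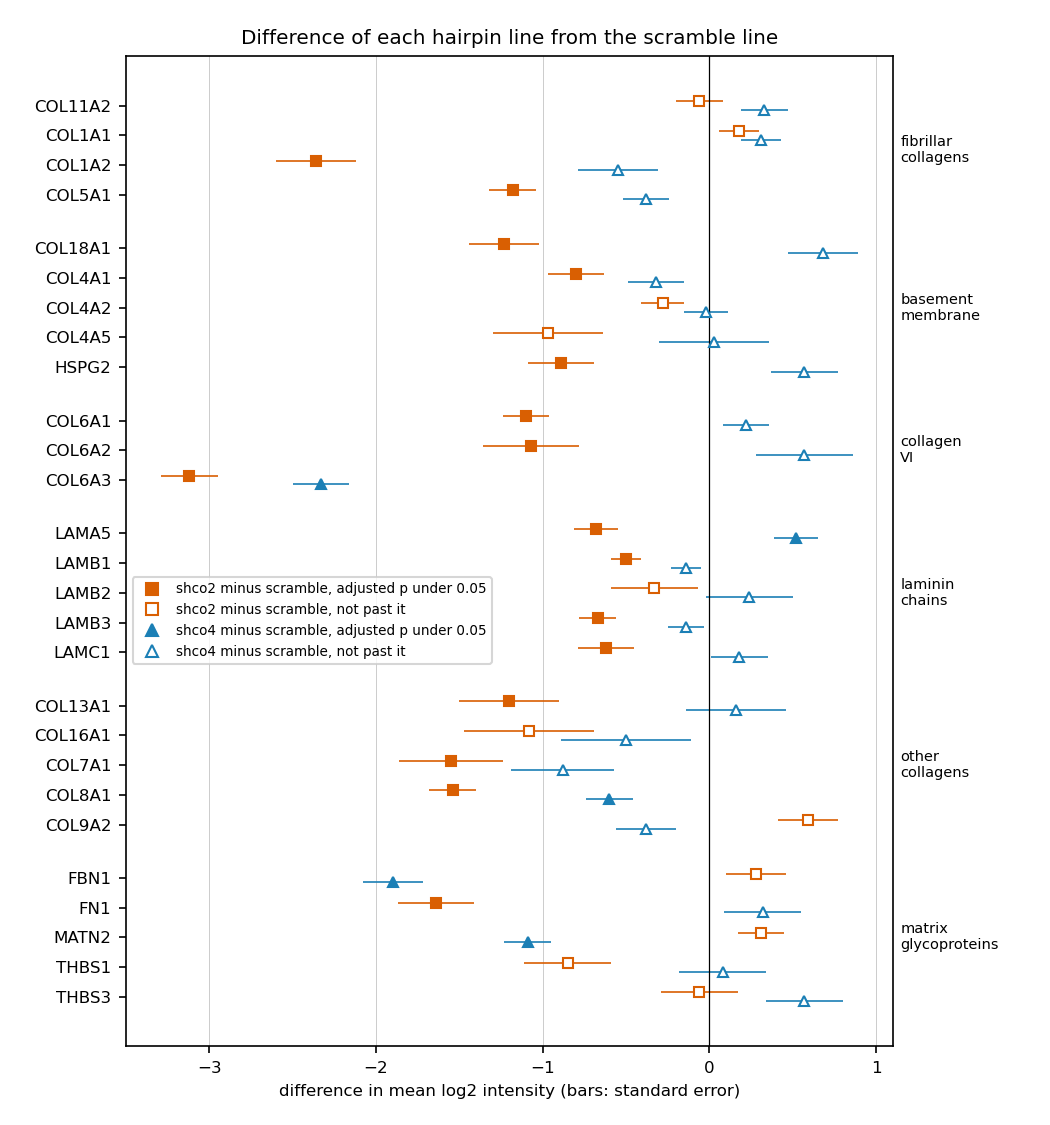
Difference in mean log2 intensity between each hairpin line and scramble for the same 27 genes, with bars for the standard error and filled symbols for an adjusted p under 0.05 in limma. Of these genes 16 (59.3%) have a filled square left of 0 for shco2. For shco4 4 (14.8%) have a filled triangle left of 0 and 1 (3.7%), LAMA5, right of it. Among all genes above 64 on at least 3 arrays, 16.1% fell with shco2, and 17.1% fell and 15.5% rose with shco4.

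Collagen VI was the class in which every chain fell with shco2, and its chains differed with shco4. The 3 chains, alpha1, alpha2 and alpha3, assemble into a single heterotrimer. COL6A1 read 1507, 1350 and 1742 in scramble, 712, 642 and 793 in shco2, and 1967, 1532 and 1843 in shco4. All shco2 arrays lay below all others, and shco4 overlapped scramble. The fall with shco2 was 2.14-fold (-1.10 ± 0.14 log2, adjusted p = 0.00284), and shco4 exceeded shco2 by 2.48-fold (1.31 ± 0.14, adjusted p = 0.000757) but did not differ past the threshold from scramble (0.22 ± 0.14, adjusted p = 0.372). The mean over all COL6A1 probe sets, several of them dim, gave an adjusted p of 0.0857 for shco2.

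COL6A2 read 509, 318 and 371 in scramble, 232, 156 and 178 in shco2, and 824, 463 and 513 in shco4. Again shco2 lay below the other lines without overlap and shco4 overlapped scramble. COL6A2 fell by 1.07 ± 0.29 log2 with shco2 (2.11-fold, adjusted p = 0.0425) and was 3.12-fold higher in shco4 than in shco2 (1.64 ± 0.29, adjusted p = 0.00567). The difference between shco4 and scramble was 0.57 ± 0.29 (adjusted p = 0.246), and it passed once arrays were blocked by replicate number (adjusted p = 0.00802). At the second COL6A2 probe set this difference was -0.12 and was not called, so its sign depends on the probe set. The fall with shco2 was lost when any single array other than shco4 replicate 1 was dropped (adjusted p = 0.0513 to 0.125). With the replicate block and all arrays the fall passed (adjusted p = 0.002). COL6A1 and COL6A2 are neighbours on chromosome 21.

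COL6A3, the longest chain of the trimer, departed from its partners. It read 528, 384 and 362 in scramble, 46.9, 54.2 and 43.7 in shco2, and 90.7, 88.3 and 72.2 in shco4. The 3 lines did not overlap, with scramble highest and shco2 lowest. COL6A3 fell 8.72-fold with shco2 (-3.12 ± 0.17, adjusted p = 0.000212) and 5.03-fold with shco4 (-2.33 ± 0.17, adjusted p = 0.000626), the largest fall in either comparison at the probe sets taken for the 52 genes, though second probe sets of COL1A2 and FBN1, described below, fell more. It was 1.73-fold higher in shco4 than in shco2 (0.79 ± 0.17, adjusted p = 0.013), a call that ended with a floor of 64 (adjusted p = 0.142).

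**Figure D3:**
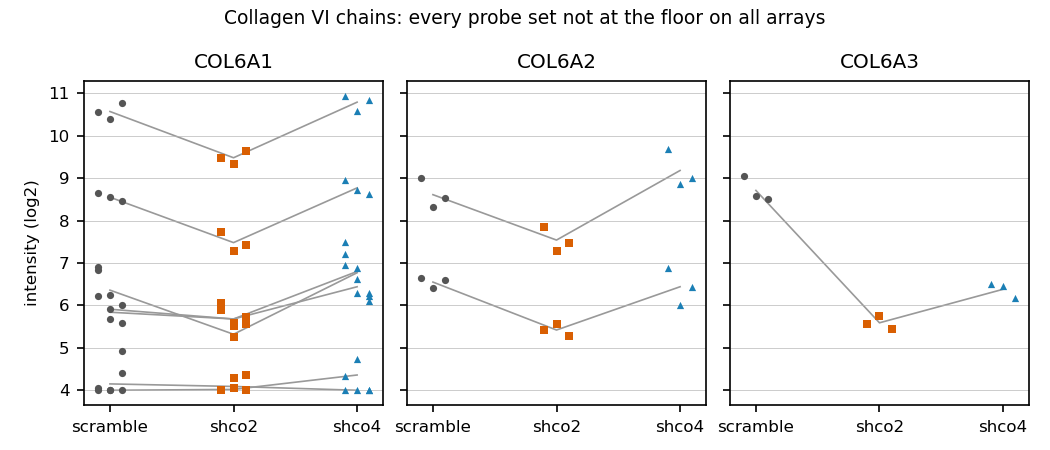
Log2 intensity (vertical axis) on each array of every collagen VI probe set that was not under 16 on all 9 arrays, with 1 panel per gene, points for arrays and grey lines joining the means of the lines for each probe set. The brighter probe sets of COL6A1 and both of COL6A2 dip in shco2 and return in shco4, while COL6A3 stays low in shco4 (72.2 to 90.7, against 362 to 528 in scramble).

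The 250 bases before the start of COL6A2 and of COL6A3 are shown because these chains behaved differently in the shco4 line. The sequences are from RefSeq on GRCh38.p14, 5′ to 3′ on the strand of the gene, COL6A2 at chr21:46097862-46098111 on the plus strand and COL6A3 at chr2:237414165-237414414 on the minus strand. Capitals mark the GC box GGGCGG, the CCAAT box CCAAT and the TATA box TATAAA, each searched on both strands with overlapping matches counted.
COL6A2: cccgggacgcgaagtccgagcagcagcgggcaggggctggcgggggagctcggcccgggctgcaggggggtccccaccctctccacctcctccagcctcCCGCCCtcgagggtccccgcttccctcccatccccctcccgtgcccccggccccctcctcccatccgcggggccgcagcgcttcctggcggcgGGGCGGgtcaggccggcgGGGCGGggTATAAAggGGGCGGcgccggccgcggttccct
COL6A3: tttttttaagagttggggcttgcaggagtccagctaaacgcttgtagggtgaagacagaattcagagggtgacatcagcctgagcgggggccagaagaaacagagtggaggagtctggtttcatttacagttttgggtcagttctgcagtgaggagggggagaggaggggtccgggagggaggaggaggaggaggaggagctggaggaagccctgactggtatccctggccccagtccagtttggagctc
The COL6A2 window holds 4 GC boxes and 1 TATA box in 79.6% GC, and the COL6A3 window holds none of the 3 motifs in 56% GC. Over 34943 such windows of all genes, 42.5% hold a GC box, 32% a CCAAT box and 10.8% a TATA box. These matches describe the letters of the windows and say nothing about a factor. A window was found for 40 of the 52 genes, not including COL6A1 and COL1A2.

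Of the 9 fibrillar collagen genes 2 fell with shco2, COL1A2 and COL5A1, and the same 2 were higher in shco4 than in shco2. With shco4 against scramble none passed the adjusted threshold in limma, 1 being lower and 1 higher at an unadjusted p under 0.05. COL1A2, the alpha2 chain of type I collagen, read 343, 384 and 306 in scramble, 65.2, 76.1 and 59.6 in shco2, and 328, 230 and 170 in shco4. All shco2 arrays lay far below the other arrays. COL1A2 fell 5.15-fold with shco2 (-2.36 ± 0.24, adjusted p = 0.00147), and shco4 exceeded shco2 by 3.51-fold (1.81 ± 0.24, adjusted p = 0.00187). Against scramble, shco4 differed by -0.55 ± 0.24 (adjusted p = 0.181, or 0.042 without shco4 replicate 1). A second COL1A2 probe set read 266, 184 and 143 in scramble, under 16 on every shco2 array, and 96.0, 84.5 and 49.0 in shco4. It was lower by at least 11.9-fold with shco2 (adjusted p = 0.000888) and fell with shco4 as well (-1.38, adjusted p = 0.0254), so the probe sets differ on shco4.

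COL1A1, the alpha1 chain that pairs with COL1A2 in type I collagen, read 159, 146 and 197 in scramble, 209, 179 and 177 in shco2, and 208, 195 and 216 in shco4. The lines overlapped. Its differences from scramble were 0.18 ± 0.12 with shco2 (adjusted p = 0.411) and 0.31 ± 0.12 with shco4 (adjusted p = 0.136, or 0.0326 without scramble replicate 3). COL5A1, a chain of the type V collagen that regulates fibril diameter, read 1607, 1453 and 1482 in scramble, 613, 821 and 588 in shco2, and 1279, 1115 and 1096 in shco4. The 3 lines did not overlap. COL5A1 fell 2.27-fold with shco2 (-1.18 ± 0.14, adjusted p = 0.0021), was -0.38 ± 0.14 with shco4 (adjusted p = 0.106, or 0.0235 without shco2 replicate 2), and was 1.74-fold higher in shco4 than in shco2 (0.80 ± 0.14, adjusted p = 0.00497). The other COL5A1 probe sets fell too with shco2, by 1.85 and 1.70 log2 (adjusted p = 0.00217 and 0.00384). COL11A2 read 71.9 to 98.2 in scramble, 78.1 to 85.8 in shco2 and 94.1 to 124 in shco4 and passed in no comparison. COL2A1, COL3A1, COL5A2, COL5A3 and COL11A1 lay near or under the floor and also passed in none.

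Among 11 basement membrane genes other than laminins, 3 fell with shco2 (COL4A1, COL18A1 and HSPG2), COL15A1 rose with shco4, and COL18A1, HSPG2 and NID1 were higher in shco4 than in shco2. COL18A1, whose C-terminal fragment is endostatin, read 1083, 810 and 883 in scramble, 375, 399 and 401 in shco2, and 2018, 1379 and 1148 in shco4. The shco2 arrays were lowest and the shco4 arrays highest, without overlap. COL18A1 fell 2.34-fold with shco2 (-1.23 ± 0.21, adjusted p = 0.00896). It was 3.76-fold higher in shco4 than in shco2 (1.91 ± 0.21, adjusted p = 0.000948). Against scramble, shco4 was higher by 0.68 ± 0.21, which did not pass (adjusted p = 0.0736, or 0.0389 without shco4 replicate 3), while a second probe set did (0.83, adjusted p = 0.02).

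HSPG2, which encodes the heparan sulfate proteoglycan perlecan, had the same order of lines. It read 1254, 985 and 1097 in scramble, 670, 637 and 502 in shco2, and 2171, 1402 and 1451 in shco4, again without overlap. HSPG2 fell 1.85-fold with shco2 (-0.89 ± 0.20, adjusted p = 0.0252) and was 2.74-fold higher in shco4 than in shco2 (1.45 ± 0.20, adjusted p = 0.00229). With shco4 the difference from scramble was 0.57 ± 0.20 (adjusted p = 0.11), which passed with the replicate block (adjusted p = 0.048). The fall of HSPG2 was lost when array 1 or 3 of scramble, or array 2 or 3 of shco2, was dropped (adjusted p = 0.06 to 0.0806). At a second HSPG2 probe set the difference with shco2 was -0.79 and did not pass (adjusted p = 0.12).

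COL4A1 and COL4A2, the chains of the commonest collagen IV trimer, start 126 bases apart on chromosome 13 and are transcribed away from each other. The bases between their starts are shown because the genes share them (RefSeq, GRCh38.p14, chr13:110307158-110307283, plus strand). Capitals mark the motifs named above.
COL4A1-COL4A2: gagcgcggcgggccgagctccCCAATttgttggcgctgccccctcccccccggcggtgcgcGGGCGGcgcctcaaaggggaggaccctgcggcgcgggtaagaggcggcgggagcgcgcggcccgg
The stretch holds 1 GC box and 1 CCAAT box in 80.2% GC. COL4A1 read 831, 933 and 785 in scramble, 394, 608 and 485 in shco2, and 603, 725 and 715 in shco4. The shco2 arrays lay below scramble and overlapped shco4. COL4A1 fell 1.74-fold with shco2 (-0.80 ± 0.17, adjusted p = 0.0178), and its differences were -0.32 with shco4 (adjusted p = 0.261) and 0.48 between shco4 and shco2 (adjusted p = 0.0765). The fall was lost when array 1 or 2 of scramble, or array 3 of shco2, was dropped (adjusted p = 0.0521 to 0.0607), and at a second probe set the difference was -0.16 (adjusted p = 0.643). COL4A2 read 798, 1005 and 888 in scramble, 680, 861 and 673 in shco2, and 798, 909 and 939 in shco4. The lines overlapped and COL4A2 passed in no comparison (-0.28 ± 0.13 with shco2, adjusted p = 0.2).

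COL4A5, a chain of kidney and smooth muscle basement membranes, read 292, 223 and 286 in scramble, 135, 158 and 116 in shco2, and 454, 235 and 186 in shco4. The shco2 arrays were lowest, but the spread in shco4 was wide and the difference of shco2 from scramble did not pass (-0.97 ± 0.33, adjusted p = 0.0936). Without shco4 replicate 1 it did (adjusted p = 0.0155). COL15A1 was dim, at 29.5, 33.4 and 32.1 in scramble and 49.3, 61.0 and 53.9 in shco4. It rose 1.72-fold with shco4 (0.78 ± 0.20, adjusted p = 0.0421). This call ended without any single array other than shco2 replicate 1 or 2 (adjusted p = 0.0732 to 0.119), and with a floor of 64. NID1, nidogen 1, read under 16, 20.9 and 22.4 in scramble, under 16, 19.5 and under 16 in shco2, and 32.2, 25.1 and 34.3 in shco4. It was higher in shco4 than in shco2 (0.83 ± 0.17, adjusted p = 0.0122), but close to the floor. COL4A3 and COL4A6 passed in no comparison.

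Of 10 laminin chains 4 fell with shco2 (LAMA5, LAMB1, LAMB3 and LAMC1), 1 rose (LAMA2), and the same 4 were higher in shco4 than in shco2. LAMA5, the alpha5 chain that joins LAMB1 and LAMC1 in a widespread epithelial laminin, fell with shco2 and rose with shco4. No other of the 52 genes did both at the probe set taken in the main fit, which has no block, filter or further centring. A second COL18A1 probe set did both as well, and with the replicate block COL6A2 and HSPG2 did at the probe sets taken. The second COL6A2 probe set was not higher with shco4 in the main fit (-0.12). COL18A1 at the probe set taken also did both in some fits without a block, such as median centring (adjusted p = 0.0352 with shco4). With only probe sets above 64 on at least 3 arrays, COL18A1 and HSPG2 both did (adjusted p = 0.0251 and 0.0434 with shco4). LAMA5 read 1430, 1262 and 1792 in scramble, 878, 924 and 966 in shco2, and 2016, 2025 and 2326 in shco4, with no overlap between lines. LAMA5 fell 1.6-fold with shco2 (-0.68 ± 0.13, adjusted p = 0.0132) and rose 1.43-fold with shco4 (0.52 ± 0.13, adjusted p = 0.0385). The direct difference of shco4 from shco2 was 1.20 ± 0.13, or 2.3-fold (adjusted p = 0.000891). The rise with shco4 ended without any single array other than scramble replicate 3 (adjusted p = 0.0596 to 0.109), and in a fit of scramble and shco4 alone (adjusted p = 0.107).

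LAMB1, the beta1 chain, read 549, 610 and 605 in scramble, 385, 441 and 425 in shco2, and 477, 537 and 588 in shco4. Only the shco2 arrays stood apart. LAMB1 fell 1.41-fold with shco2 (-0.50 ± 0.09, adjusted p = 0.0111) and was 1.28-fold higher in shco4 than in shco2 (0.35 ± 0.09, adjusted p = 0.0266). The latter was lost when array 1 or 3 of shco2, or array 2 or 3 of shco4, was dropped (adjusted p = 0.0632 to 0.081).

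LAMC1, the gamma1 chain, read 1796, 1841 and 1993 in scramble, 968, 1587 and 1182 in shco2, and 2016, 2141 and 2242 in shco4. The lines did not overlap, with shco2 lowest and its replicate 2 nearest to scramble. LAMC1 fell 1.54-fold with shco2 (-0.62 ± 0.17, adjusted p = 0.0461), and this call ended without any single array other than shco2 replicate 2 (adjusted p = 0.0688 to 0.13). It was 1.75-fold higher in shco4 than in shco2 (0.80 ± 0.17, adjusted p = 0.0121). A second LAMC1 probe set passed in neither (-0.21, adjusted p = 0.529, and 0.38, adjusted p = 0.185).

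LAMB3, the beta3 chain of the laminin of hemidesmosomes, read 2727, 2403 and 2608 in scramble, 1801, 1439 and 1640 in shco2, and 2094, 2341 and 2598 in shco4. The shco2 arrays were lowest, and shco4 overlapped scramble. LAMB3 fell 1.59-fold with shco2 (-0.67 ± 0.11, adjusted p = 0.00744) and was 1.44-fold higher in shco4 than in shco2 (0.53 ± 0.11, adjusted p = 0.0116). LAMB2 read 964, 746 and 909 in scramble, 760, 721 and 603 in shco2, and 1521, 900 and 783 in shco4. Scramble overlapped both hairpin lines, which did not overlap each other. LAMB2 passed in no comparison (-0.33 with shco2, adjusted p = 0.488, 0.24 with shco4, adjusted p = 0.633, and 0.57 between shco4 and shco2, adjusted p = 0.16).

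LAMA2, the alpha2 chain best known from muscle basement membrane, went the other way with shco2 from the chains that fell. It read under 16, 25.5 and 30.8 in scramble, 62.1, 80.5 and 56.9 in shco2, and 33.6, 48.8 and 54.3 in shco4. The lines did not overlap, with scramble lowest, but all values were dim. LAMA2 rose 2.83-fold with shco2 (1.50 ± 0.30, adjusted p = 0.015), and ended as a call without shco2 replicate 2 (adjusted p = 0.0515). With shco4 the difference was 0.94 (adjusted p = 0.078, or 0.0484 with the replicate block). The other readable LAMA2 probe sets were higher with shco2 by 0.62 and 1.12 (adjusted p = 0.0956 and 0.0512) but lower with shco4 by 0.44 and 0.21 (adjusted p = 0.233 and 0.771), so the sign for shco4 depends on the probe set. Between the hairpin lines these probe sets were lower in shco4 (-1.06 and -1.33, adjusted p = 0.0104 and 0.0192), while the first did not pass (-0.56, adjusted p = 0.232). LAMA1, LAMA4, LAMB4 and LAMC3 lay near the floor and passed in no comparison.

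Of 7 matrix glycoproteins FN1 alone fell with shco2, whereas FBN1 and MATN2 fell with shco4. FN1, fibronectin, read 3799, 2750 and 3214 in scramble, 1183, 922 and 1020 in shco2, and 5632, 3635 and 3211 in shco4. All shco2 arrays lay far below the other arrays. FN1 fell 3.11-fold with shco2 (-1.64 ± 0.23, adjusted p = 0.00453) and was 3.89-fold higher in shco4 than in shco2 (1.96 ± 0.23, adjusted p = 0.00123). Against scramble, shco4 differed by 0.32 ± 0.23 (adjusted p = 0.449). All 6 FN1 probe sets were lower with shco2, 4 of them past the threshold, and 5 were called higher in shco4 than in shco2.

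The 250 bases before the FN1 start are shown because FN1 was among the brightest of the genes that fell with shco2 (RefSeq, GRCh38.p14, chr2:215436069-215436318, minus strand), with the same motifs in capitals.
FN1: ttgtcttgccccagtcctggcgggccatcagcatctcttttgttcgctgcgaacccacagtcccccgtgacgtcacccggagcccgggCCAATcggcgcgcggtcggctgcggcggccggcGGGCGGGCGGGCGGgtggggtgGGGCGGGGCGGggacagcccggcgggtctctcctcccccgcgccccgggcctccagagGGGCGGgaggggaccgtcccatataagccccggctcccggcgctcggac
The window holds 6 GC boxes, some of which overlap, and 1 CCAAT box in 76.4% GC. Further motifs were searched on both strands in the 54 windows of the 40 genes. The AP-1 site TGANTCA was in 3.7% of these windows, the TEAD site GGAATG in 11.1% and the Smad palindrome GTCTAGAC in 0%, beside 6.59%, 11.9% and 0.183% of all windows. The GC box was in 63% of the 54 windows, the CCAAT box in 33.3% and the TATA box in 13%, beside 42.5%, 32% and 10.8%. What these shares mean for expression was not tested.

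FBN1, fibrillin 1, the main protein of elastic microfibrils, read 478, 504 and 447 in scramble, 552, 678 and 510 in shco2, and 118, 162 and 107 in shco4. The shco4 arrays were far below the rest, and shco2 was above scramble without overlap. FBN1 fell 3.74-fold with shco4 (-1.90 ± 0.18, adjusted p = 0.00123), while its difference with shco2 was 0.28 (adjusted p = 0.374). It was 4.53-fold lower in shco4 than in shco2 (-2.18 ± 0.18, adjusted p = 0.000292). A second probe set fell too with shco4 (-2.35, adjusted p = 0.0134).

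MATN2, matrilin 2, an adaptor protein of filamentous matrix, read 1004, 903 and 901 in scramble, 1143, 1321 and 1032 in shco2, and 414, 525 and 388 in shco4. It showed the same order as FBN1, and no line overlapped another. MATN2 fell 2.13-fold with shco4 (-1.09 ± 0.14, adjusted p = 0.00343) and was 2.64-fold lower in shco4 than in shco2 (-1.40 ± 0.14, adjusted p = 0.000591). Its difference with shco2 was 0.31 (adjusted p = 0.186).

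THBS1, thrombospondin 1, a secreted protein that can activate latent TGF-beta, read 5782, 5403 and 4148 in scramble, 3393, 2904 and 2261 in shco2, and 6393, 6269 and 3843 in shco4. The shco2 arrays were lowest, and the third replicate was the lowest of each line. The difference with shco2 was -0.85 ± 0.26 and did not pass (adjusted p = 0.065, or 0.0326 without shco4 replicate 3). THBS1 was 1.91-fold higher in shco4 than in shco2 (0.93 ± 0.26, adjusted p = 0.0341). That call was lost when array 1 or 2 of scramble, 2 or 3 of shco2, or 1 or 2 of shco4 was dropped (adjusted p = 0.0511 to 0.103). THBS2, THBS3 and FBN2 passed in no comparison, THBS3 at 0.57 with shco4 (adjusted p = 0.156).

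Of the 12 remaining collagens 4 fell with shco2: COL7A1, COL8A1, COL8A2 and COL13A1. COL8A1 read 298, 313 and 265 in scramble, 111, 87.7 and 105 in shco2, and 197, 222 and 161 in shco4. The 3 lines did not overlap. This chain of the short-chain collagen of vessels and cornea fell 2.9-fold with shco2 (-1.54 ± 0.14, adjusted p = 0.00111) and 1.52-fold with shco4 (-0.60 ± 0.14, adjusted p = 0.0314). It was 1.91-fold higher in shco4 than in shco2 (0.93 ± 0.14, adjusted p = 0.00342). The fall with shco4 ended with the replicate block (adjusted p = 0.0511), and when array 1 or 2 of scramble, 3 of shco2, or 1 or 3 of shco4 was dropped (adjusted p = 0.0555 to 0.1). A second COL8A1 probe set passed in no comparison (-0.38 with shco2, adjusted p = 0.655).

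COL7A1, which forms the anchoring fibrils that tie the basement membrane to the stroma, read 435, 303 and 425 in scramble, 142, 145 and 109 in shco2, and 319, 197 and 142 in shco4. The shco2 arrays lay below scramble, and shco4 overlapped both. COL7A1 fell 2.92-fold with shco2 (-1.55 ± 0.31, adjusted p = 0.0159), and the difference with shco4 was -0.88 ± 0.31 (adjusted p = 0.108). The fall was lost when array 1 or 3 of scramble, or array 3 of shco2, was dropped (adjusted p = 0.0551 to 0.0569), and without shco4 replicate 1 the shco4 difference passed (adjusted p = 0.0308).

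COL13A1, a transmembrane collagen of cell adhesion sites, read 1855, 2060 and 2818 in scramble, 691, 1024 and 1246 in shco2, and 1923, 2331 and 3334 in shco4. The shco2 arrays were lowest, and the other lines overlapped. COL13A1 fell 2.3-fold with shco2 (-1.20 ± 0.30, adjusted p = 0.0348) and was 2.57-fold higher in shco4 than in shco2 (1.36 ± 0.30, adjusted p = 0.0148). The fall was lost when any scramble array, array 1 or 2 of shco2, or array 2 of shco4 was dropped (adjusted p = 0.0584 to 0.103). At a second COL13A1 probe set it did not pass either (-0.86, adjusted p = 0.0535). Values rose from replicate 1 to replicate 3 in each line, and with the replicate block and all arrays the fall passed (adjusted p = 0.00265). COL8A2, the partner chain of COL8A1, was dim at 52.4 to 71.9 in scramble and 23.0 to 36.9 in shco2. It fell 1.94-fold (-0.96 ± 0.21, adjusted p = 0.0229), and not without scramble replicate 1 or 3 (adjusted p = 0.0718 and 0.064).

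COL9A2 and COL21A1, both fibril-associated collagens, differed between the hairpin lines. COL9A2 read 176, 131 and 119 in scramble, 221, 211 and 200 in shco2, and 117, 121 and 87.9 in shco4. Here shco2 was the highest line (0.59 ± 0.18 over scramble, adjusted p = 0.0665, or 0.0281 without scramble replicate 1 and 0.0474 without shco4 replicate 3), and COL9A2 was 1.95-fold lower in shco4 than in shco2 (-0.96 ± 0.18, adjusted p = 0.00734). Its difference between shco4 and scramble did not pass (-0.38 ± 0.18, adjusted p = 0.217). COL21A1 read 30.0, 26.7 and 22.4 in shco4, under 16 on every shco2 array and on all but 1 scramble array. It was at least 1.64-fold higher in shco4 than in shco2 (adjusted p = 0.0025) and rose over scramble (0.66 ± 0.10, adjusted p = 0.00652), both lost with a floor of 64. COL16A1 did not pass (-1.08 with shco2, adjusted p = 0.106), although without shco4 replicate 1 it did (adjusted p = 0.0297). COL10A1 and COL14A1 passed in no comparison.

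**Figure D4:**
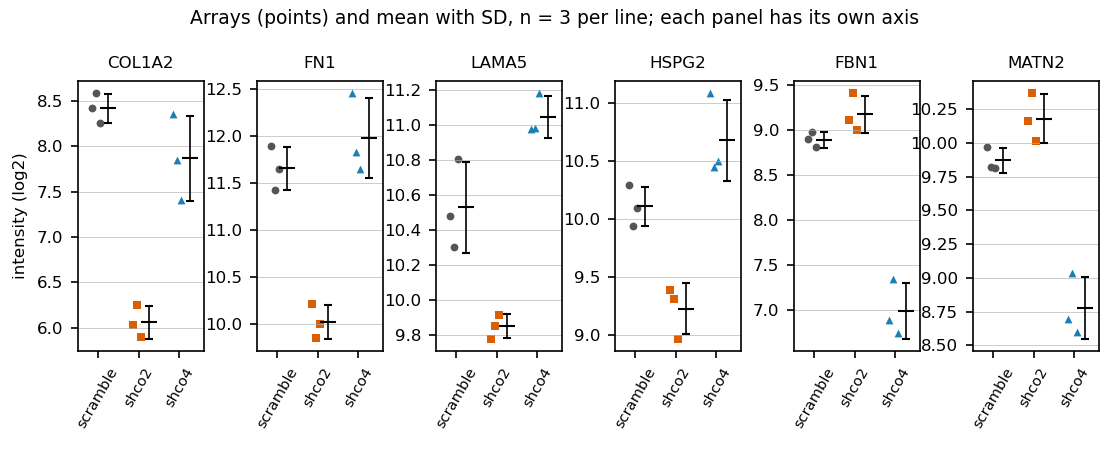
Log2 intensity (vertical axis, a separate scale in each panel) of 6 genes with different patterns over the lines, with points for arrays and a bar for the mean ± SD of each line (n = 3). COL1A2 and FN1 are low in shco2, LAMA5 and HSPG2 are lowest in shco2 and highest in shco4, and FBN1 and MATN2 are low in shco4.

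Sorted by their calls in all 3 comparisons, 11 genes fell with shco2, were not called with shco4 and were higher in shco4 than in shco2: COL1A2, COL5A1, COL6A1, COL6A2, COL13A1, COL18A1, HSPG2, LAMB1, LAMB3, LAMC1 and FN1. COL6A3 and COL8A1 fell in both hairpin lines and less in shco4. FBN1 and MATN2 fell with shco4 alone and were lower there than in shco2. Of the 52 genes 27 passed in no comparison, among them COL4A4, COL9A1, COL9A3, COL19A1 and NID2, which were under 16 on every array and could show no change. Of all 52 genes another 20 were dim, with at most 2 arrays above 64. These 20 include genes that were called: COL8A2, COL15A1, COL21A1, LAMA2 and NID1. Of the 17 genes that fell with shco2, 13 had several probe sets above the floor. In 12 of these all such probe sets differed in the same direction, and in 8 another one passed the test. The exception was COL6A1, with 6 of 7 lower.

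Genes that modify, process and cross-link collagen numbered 25. With shco2 4 fell and 3 rose (median 0.00), where 11% of all genes fell and 13.3% rose. With shco4 6 fell and 1 rose (median 0.00), where 11.5% of all genes fell and 10.7% rose. LOXL2 (-2.13, adjusted p = 3.5e-05) and LOX (-0.96, adjusted p = 0.0382), oxidases that cross-link collagen, fell with shco2, as did PLOD2 (-0.91, adjusted p = 0.00454), a lysyl hydroxylase. With shco4, PLOD2 (-1.06, adjusted p = 0.00323), PLOD1 (-0.99, adjusted p = 0.000941), COLGALT1 (-0.97, adjusted p = 0.00131), a collagen galactosyltransferase, and PCOLCE2 (-0.90, adjusted p = 0.00196), an enhancer of procollagen processing, fell. With shco2 PCOLCE2 instead rose (0.63, adjusted p = 0.00574), as did P3H1 (0.60, adjusted p = 0.00451) and MIA3 (0.52, adjusted p = 0.00247). LOXL2 was higher in shco4 than in shco2 (1.90, adjusted p = 2.62e-05), and PCOLCE2 lower (-1.53, adjusted p = 0.000131).

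Of 18 matrix receptor genes, 9 fell with shco2 (median -0.40) and 5 fell with shco4 (median -0.20), and the others did not pass. Of all genes 11% fell with shco2 and 11.5% with shco4. ITGA6 (-1.81, adjusted p = 0.000212), ITGA3 (-1.37, adjusted p = 0.000306) and ITGB4 (-0.80, adjusted p = 0.0133), subunits of laminin-binding integrins, fell with shco2. With shco4 the falls included ITGA5 (-1.37, adjusted p = 0.00121), the alpha subunit of the fibronectin receptor, and the syndecan SDC1 (-1.34, adjusted p = 0.00374). Between the hairpin lines 8 receptor genes were higher in shco4 and 3 were lower (16% and 19.3% of all genes), with ITGA6 at 1.59 (adjusted p = 0.000122).

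Among 30 other secreted matrix genes 5 fell and 1 rose with shco2, and 4 fell and 2 rose with shco4 (median -0.04 in both). Of all genes 11% fell and 13.3% rose with shco2, and 11.5% fell and 10.7% rose with shco4, so the counts of this list do not stand far from the array. AGRN, agrin, a basement membrane proteoglycan, fell with shco2 (-1.18, adjusted p = 0.000566) and rose with shco4 (0.67, adjusted p = 0.00414). ECM1 did the reverse, rising with shco2 (0.65, adjusted p = 0.0271) and falling with shco4 (-0.76, adjusted p = 0.0181). TGFBI (-2.32, adjusted p = 0.0196) and TNC, tenascin C (-1.14, adjusted p = 0.0267), fell with shco2. With shco4, LUM, the collagen-binding proteoglycan lumican, rose (3.34, adjusted p = 0.0012) and CCN2 fell (-2.09, adjusted p = 0.0214).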

How the data were processed

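Per the labels, 200 ng of total RNA of each of 9 cell line samples was made into biotin-cRNA for an Affymetrix 3′ array. The deposited table holds linear intensity values for 22277 probe sets. Their mean without the lowest and highest 2% was 500.1 on every array, as computed here, so the authors had scaled the arrays before depositing the intensities. Which software summarised the probes is not given in the sources used here.

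A floor of 16 was set before taking log2 of the intensities, and 62 control probe sets were left out. In R 4.3.3, limma 3.58.1 (lmFit and eBayes) fitted 1 mean for each group, using all 9 arrays. Tests are two-sided, with Benjamini-Hochberg adjustment over 22215 probe sets. The fit was tested on simulated data. Folds against groups at the floor are lower bounds.

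The genes and lists were chosen with earlier results of these data known. Named are a fixed set of matrix genes, every other gene called in at least 1 comparison, and from each list of related genes some of up to 4 with the largest called difference per comparison. Same-numbered arrays of scramble and shco4 deviated from their group means together (r = 0.236, 0.133 and 0.234), so the replicate block is given beside those results where it changes a call. For scramble and shco2 (0.289, 0.0567 and 0.254) and for the hairpin lines (0.179, 0.0576 and 0.214) the values of replicate 2 were lower. These numbers were not taken as pairs. Each value still exceeded every value between differently numbered arrays of the same lines (at most 0.0449 and 0.0168). A pairing by number is thus not excluded, and the blocked counts of these comparisons are given at the end. Alternatives were other normalization, floors, filters, probe set choices and eBayes settings, a fit of 2 groups alone, the block, and each array left out. Promoter windows and gene order are from RefSeq on GRCh38.p14. The number of arrays limits the precision.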

Additional observations from a re-analysis of the deposited data

Results flagged for a closer look

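LAMA5 went in opposite directions in the hairpin lines. It fell with shco2 and rose with shco4, and the direct difference of shco4 from shco2 was 1.20 log2 (limma adjusted p = 0.000891), with every shco4 array above every shco2 array. The rise over scramble was lost when any of 8 of the 9 arrays was dropped (adjusted p up to 0.109), with a floor of 1 (adjusted p = 0.0541) and in a fit of those 2 lines alone (adjusted p = 0.107).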

How the results depend on the processing

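Of the 45 calls for single genes, none changed direction under the alternatives, and over all alternatives 791 of 894 values kept the call and 103 lost it. This total counts genes with 1 probe set as kept when second probe sets were read. Kept by every alternative were 8 of the 18 calls with shco2, 3 of 7 with shco4 and 13 of 20 between the hairpin lines. Every alternative that could be run kept the calls of COL1A2, COL5A1, COL6A3, COL18A1, FN1, LAMA5, LAMB1 and LAMB3 with shco2. The 17 genes lower with shco2 became 11 when the 33 genes with several probe sets were read by the second, the other 19 keeping their only one. The 1 gene higher with shco2, LAMA2, became 2 with median centring, with floor probe sets left out and with the replicate block, and 0 with a floor of 64 (LAMA2 adjusted p = 0.586) or second probe sets (LAMA2 adjusted p = 0.0956). The 3 higher with shco4 became 5 with median centring or the mean of probe sets, 6 with floor probe sets left out, and 1 with a floor of 64 or of 1.

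Fitting the replicate number as a block gave 18 lower and 2 higher with shco2, 3 lower and 6 higher with shco4, and 3 lower and 19 higher in shco4 than in shco2. With shco2 it added COL9A2 as higher (adjusted p = 0.0321) and THBS1 as lower (adjusted p = 0.00451). Between the hairpin lines it added COL4A1 (adjusted p = 0.0323) and COL15A1 (adjusted p = 0.0366) as higher in shco4.

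Leaving out each array in turn gave 10 to 18 lower and 0 to 2 higher with shco2, 3 to 5 lower and 1 to 4 higher with shco4, and 3 lower and 15 to 19 higher in shco4 than in shco2. Without scramble replicate 1 or 3 the 17 became 10 and 11. The 3 higher with shco4 became 1 without array 1 or 2 of scramble, 3 of shco2 or 1 of shco4. Dropping 1 array also brought some dim or variable differences past the threshold: between the hairpin lines COL4A1 and COL15A1 without shco2 replicate 2 (adjusted p = 0.0218 and 0.0226), COL4A3 and COL11A2 without scramble replicate 3 (0.00361 and 0.0489), COL4A5 without shco4 replicate 3 (0.0319) and FBN2 without shco4 replicate 2 (0.0498), and with shco4 COL4A3 without scramble replicate 3 (0.0123) and NID1 without shco4 replicate 2 (0.0381). A difference between values under 16 cannot be read from these intensities.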
